A study of Mus musculus with 18 samples.

Results

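Neat1, a long noncoding RNA of the nucleus, was examined as a partner of miRNAs in mouse keratinocytes grown in culture. The assay was CLEAR-CLIP, which ligates an Argonaute-bound miRNA to the RNA beside it, so that each chimeric read names 1 miRNA and places 1 target fragment on the genome. A read was counted to Neat1 where the midpoint of its target lay within the RefSeq span of the gene on mm10, chromosome 19, bases 5824708 to 5845480, which is 20773 bases long and has 2 annotated transcripts. The rule took 14046 of 1153545 chimeric reads, or 1.22%, and made Neat1 1 of 17912 named genes with any read. All of its targets were on the minus strand. Positions along Neat1 are therefore counted from its 5′ end, with base 1 at 5845480. At the edges of the span, 427 reads lay within 500 bases inside the 3′ end and 1 read within 500 bases beyond it, and the 5′ end had 97 reads inside and 1 beyond. Neat1 was picked for its reads in these same pools, so its levels and its miRNAs are described here with no test.

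The reads came in 5 pools of 18 libraries, in 2 sets. In set 1, 3 libraries of miR-200 Double knockout (DKO) keratinocytes were set against 6 libraries of K14-Cre only keratinocytes, the control, in which Cre is driven by the keratin 14 promoter of basal epidermal cells. In set 2, 3 further DKO libraries and 3 libraries of miR-200 inducible cells given doxycycline at 3 ug/ml for 24 hours were each set against the same 3 libraries of inducible cells without doxycycline, the uninduced control. All cells grew in E-low calcium medium, and each library came from 1 dish. Libraries of a group were deposited together with no library name, so each group is 1 sample, no spread between libraries can be given, and no test was made between groups. Intervals are exact 95% intervals, Clopper-Pearson for a share and conditional for a ratio of 2 shares, and they cover counting error only. The sets may be separate sequencing runs, and set and sequencing run cannot be told apart.

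Neat1 RNA is the scaffold of paraspeckles, nuclear bodies that hold RNA-binding proteins such as Nono and Sfpq, and the gene gives a short and a long transcript that share their 5′ part. miRNAs guide Argonaute proteins to RNAs that pair with the miRNA seed, and on messenger RNAs this lowers translation and stability. The miR-200 family keeps epithelial cells epithelial, chiefly by acting on the Zeb1 and Zeb2 transcription factors. Its 5 members carry 2 seeds that differ at 1 base.

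The mature sequences of the miRNAs on which the results turn are given 5′ to 3′ from RefSeq (GRCm38.p6), with the seed, bases 2 to 8, in capitals. They are grouped by seed, since miRNAs that share a seed were counted together at sites.
miR-200c-3p: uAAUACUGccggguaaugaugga
miR-200b-3p: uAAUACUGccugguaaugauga
miR-429-3p: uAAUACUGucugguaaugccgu
miR-141-3p: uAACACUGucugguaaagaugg
miR-200a-3p: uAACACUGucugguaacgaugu
miR-16-5p: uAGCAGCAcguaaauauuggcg
miR-15b-5p: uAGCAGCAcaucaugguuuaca
miR-15a-5p: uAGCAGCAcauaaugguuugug
miR-322-5p: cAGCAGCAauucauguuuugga
miR-6409: uGCGGGUGaggaugugugcuccu
miR-31-5p: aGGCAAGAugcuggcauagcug
miR-21a-5p: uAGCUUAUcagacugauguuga
miR-27a-3p: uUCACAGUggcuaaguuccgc
miR-706: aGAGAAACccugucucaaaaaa
miR-183-5p: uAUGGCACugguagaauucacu
miR-182-5p: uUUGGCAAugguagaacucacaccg
miR-96-5p: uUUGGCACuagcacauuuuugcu

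The pools held 48662 to 419117 chimeric reads. All 9 keratinocyte markers had reads, 0.352% to 0.610% of a pool. Markers of other cells that such a culture could hold were near 0: 1 of 6 fibroblast markers (at most 12 reads in a pool), 2 of 5 melanocyte markers (at most 4), 0 of 5 immune markers and 3 of 4 endothelial markers (at most 9) had any read. Some reads were found again in a second pool of their set, alike in place, miRNA and barcode: 14.6% of Neat1 reads in set 1 DKO cells and 3.42% in set 1 control cells, and 7.52%, 4.54% and 5.26% in set 2 DKO, induced and uninduced cells. Results that rest on these reads are given with and without them.

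Neat1 was among the ranked genes with most chimeric reads in every pool. It took 213 reads in set 1 DKO cells, or 0.438% of the pool (interval 0.381% to 0.500%), against 906 reads, or 0.560% (0.525% to 0.598%), in set 1 control cells. In set 2 it took 2552 reads in DKO cells (1.22%, 1.17% to 1.26%) and 5751 in induced cells (1.37%, 1.34% to 1.41%), against 4624 in uninduced cells (1.47%, 1.43% to 1.52%). Ranks and the gene ratios below leave out mitochondrial genes and genes annotated as ribosomal or other structural RNA. Mitochondrial targets took 3.58% and 2.02% of set 1 DKO and control reads. In set 2 they took 7.58%, 8.99% and 9.01% of DKO, induced and uninduced reads. Among the ranked genes, only Rn18s-rs5, a ribosomal RNA locus annotated as a pseudogene, stood above Neat1 in set 2. In set 1 DKO and control cells 4 and 3 genes stood above it, Gm34755 and Rn4.5s-ps2 in both of them. The order of the set 2 pools was uninduced, induced, DKO, with intervals that did not overlap, and both set 1 pools were lower than any set 2 pool. The set 1 control share was 0.381 times the set 2 uninduced share (0.354 to 0.409), and 0.578 times (0.537 to 0.621) without the 10 miRNA names overrepresented in set 1.

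**Figure D1:**
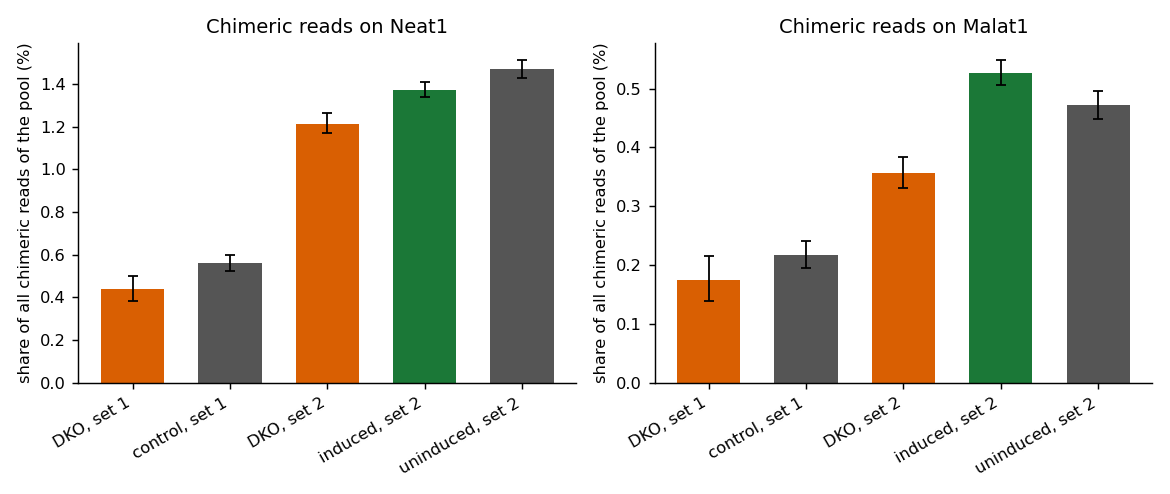
Share of each pool's chimeric reads that lie on Neat1 (left panel) and, for comparison, on Malat1 (right panel), in percent on axes of different height, for the 5 pools. Each column is 1 pool of 3 or 6 libraries and each whisker the exact 95% interval for counting error. Both RNAs are lower in the set 1 pools than in any set 2 pool.

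Between pools of a set the Neat1 share differed by less than 2-fold. It was 0.781 times as high in DKO as in control cells of set 1 (0.670 to 0.908), 0.825 times as high in DKO as in uninduced cells of set 2 (0.786 to 0.866), and 0.932 times as high in induced as in uninduced cells (0.896 to 0.969). Among genes with at least 20 reads in the compared pools, 8.16% were at least 2-fold higher and 17.9% at least 2-fold lower in set 1 DKO cells, of 2170 genes. The same shares were 9.67% and 11.4% of 4468 genes for set 2 DKO cells, and 3.21% and 2.31% of 5320 genes for induced cells. The median gene had ratios of 0.880, 1.01 and 1.03 in the same order, and 40.4%, 34.9% and 36.1% of genes had a lower ratio than Neat1. Both set 2 comparisons share the uninduced pool. In a pool of chimeric reads, less Neat1 RNA, less miRNA beside it and more reads on other targets cannot be told apart.

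Malat1, a nuclear noncoding RNA whose gene lies 22035 bases beyond the 3′ end of Neat1, served for comparison. It had 85 reads in set 1 DKO and 352 in set 1 control cells, and 749, 2209 and 1481 reads in set 2 DKO, induced and uninduced cells. Neat1 took 2.51, 2.57, 3.41, 2.60 and 3.12 times as many reads as Malat1 in the same order of pools, without regard to their lengths. Malat1 had DKO ratios below 1, 0.802 (0.626 to 1.02) in set 1 and 0.756 (0.692 to 0.826) in set 2, and unlike Neat1 it was higher in induced than in uninduced cells, at 1.12 (1.05 to 1.19). Among 13 genes with at least 100 reads in every pool, those with the pattern over the 5 pools nearest to that of Neat1 were Rn18s-rs5, Rbms1, Ahnak, Scd2 and Foxp1, at distances of 0.785, 1.35, 1.46, 1.83 and 1.96. The distance is Euclidean, between log2 shares centred on their mean, over 5 pools. Malat1, with 85 reads in set 1 DKO cells, missed the bound of 100 reads, so its distance was not compared.

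Genes of the proteins that gather on Neat1 in paraspeckles were described as a list. Of 38 names listed for paraspeckle protein genes, 37 were in the annotation and 33 had any read. Together they took 0.210% and 0.259% of set 1 DKO and control reads, and 0.278%, 0.279% and 0.258% of set 2 DKO, induced and uninduced reads. In set 1, 11 had enough reads to compare, none was 2-fold higher and 2 were 2-fold lower in DKO cells (median ratio 0.755), against 8.16% and 17.9% of all genes tested. In set 2, 0 of 18 were higher and 1 lower in DKO cells (median 1.11), against 9.67% and 11.4% of all genes. In induced cells 1 of 22 was higher and 0 lower (median 1.12), against 3.21% and 2.31% of all genes. Their leading gene was Cpsf6, a factor of 3′ end processing, with ratios of 0.969 in set 1, 0.810 in set 2 DKO and 0.868 in induced cells. Matr3, a nuclear matrix protein gene, had 0.755, 1.23 and 1.41 (1.05 to 1.90 for the induced comparison), and Taf15, an RNA-binding protein gene, had 0.383, 0.909 and 1.12. Of 19 names listed for nuclear and long noncoding RNA genes, 18 were in the annotation and 14 had reads. Malat1 led them, followed by Pvt1, a transcript beside the Myc gene, and Dleu2, the host of miR-15a and miR-16. Pvt1 had ratios of 0.442, 0.839 and 0.967 in the 3 comparisons.

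Neat1 was joined to 321 miRNA names, 70 of them in set 1 DKO, 133 in set 1 control, 180 in set 2 DKO, 240 in induced and 220 in uninduced cells. In set 2 the leading partners were the abundant miRNAs of keratinocytes. miR-31-5p, a miRNA of proliferating keratinocytes, had 215 reads in DKO (8.42% of Neat1 reads), 548 in induced (9.53%) and 378 in uninduced cells (8.17%). miR-21a-5p, a widely expressed miRNA, had 184 (7.21%), 418 (7.27%) and 360 (7.79%). The shares of each of these miRNAs were alike in all 3 pools. miR-27a-3p, which is made from 1 primary transcript with miR-23a and miR-24, had 261 reads in DKO (10.2%), 283 in induced (4.92%) and 232 in uninduced cells (5.02%), and led in DKO cells. miR-205-5p, an epithelial miRNA, had 145 (5.68%), 114 (1.98%) and 133 (2.88%). miR-125b-5p, a miRNA of epidermal stem cells, ran the other way, with 60 (2.35%), 300 (5.22%) and 250 (5.41%).

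In set 1 the order was different. The leading name was miR-6409, with 27 reads (12.7%, 8.52% to 17.9%) in DKO and 208 (23.0%, 20.3% to 25.8%) in control cells, nearly all at 1 place, described below. The name is the one in the deposited files, and whether miR-6409 was the RNA ligated to Neat1 in these reads was not tested, so each share given for it is that of the name. miR-31-5p followed with 19 reads (8.92%) in DKO and 57 (6.29%) in control cells, and miR-21a-5p had 6 (2.82%) and 39 (4.30%). miR-27a-3p had 9 (4.23%) and 32 (3.53%), and miR-205-5p had 7 (3.29%) and 31 (3.42%). With 213 Neat1 reads in the set 1 DKO pool, 3 reads correspond to 1.41% of them, so smaller shares there, the miR-200 read among them, rest on 1 or 2 reads.

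**Figure D2:**
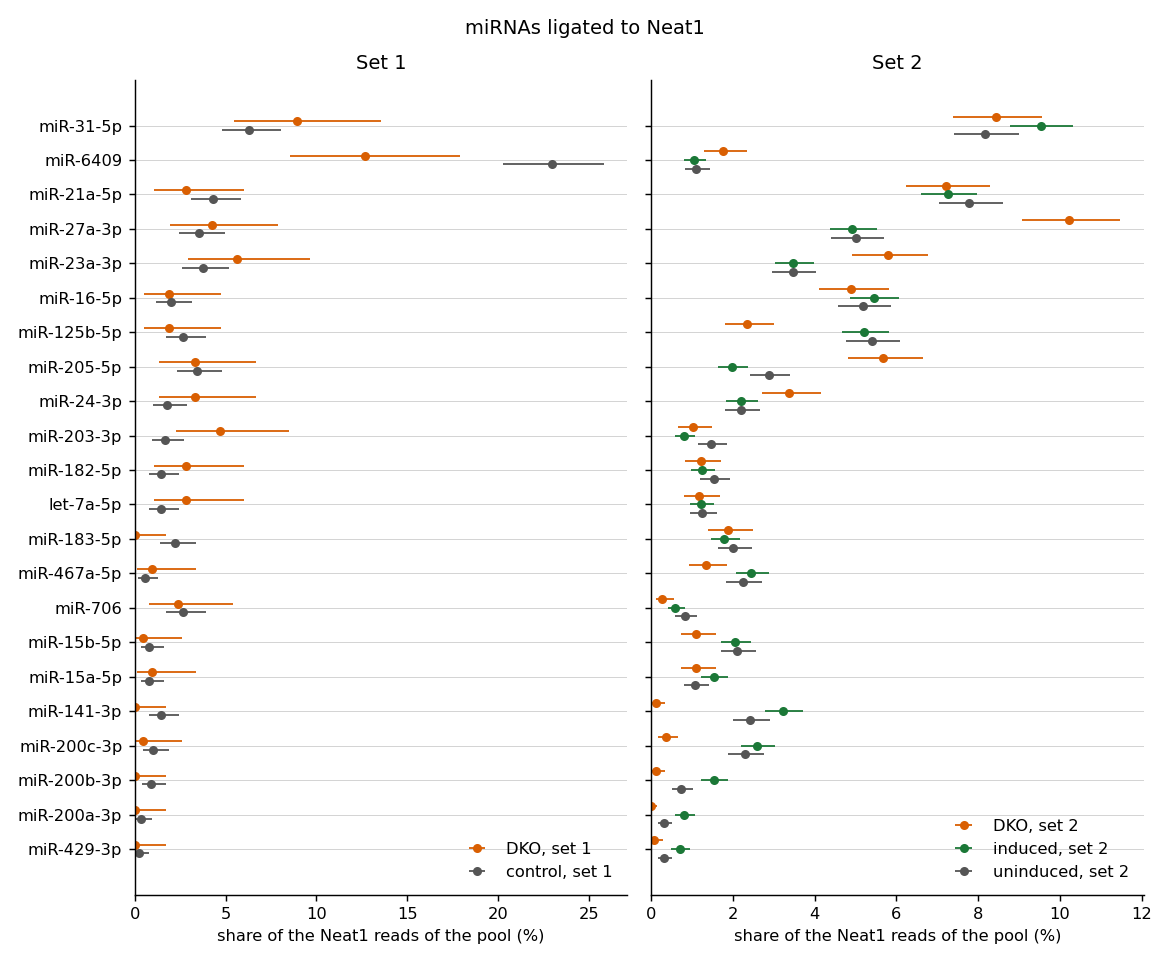
Share of each pool's Neat1 reads (horizontal axis, in percent, with a different scale for each set) held by the leading miRNAs and the miR-200 members, 1 row per miRNA. Points are pools and lines exact 95% intervals for counting error. miR-6409 leads in both set 1 pools (12.7% and 23.0%) and is under 2% in set 2, while miR-31-5p is high in all pools (6.29% to 9.53%).

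An abundant miRNA can lead on many RNAs at once. Each miRNA's share of Neat1 reads was therefore divided by its share of the reads on all other targets of the same pool. By the cosine of these compositions over all miRNAs, Neat1 and other targets were alike in set 2 (0.970 in DKO, 0.946 in induced, 0.943 in uninduced cells) and less so in set 1 (0.450 in DKO, 0.234 in control cells). The set 1 values include miR-6409, with 12.7% and 23.0% of Neat1 reads in DKO and control cells, and the 10 names overrepresented in set 1. Cosines without these names were not computed. Of the miRNAs with at least 5 reads expected on Neat1, 3.7%, 4.35% and 5.5% were at least 2-fold over-represented there in DKO, induced and uninduced cells of set 2, of 81, 115 and 109 miRNAs, and 14.8%, 14.8% and 13.8% were at least 2-fold under-represented. In set 1 these shares were 0% higher and 25% lower of 8 miRNAs in DKO cells, and 17.6% higher and 29.4% lower of 34 miRNAs in control cells. Set 1 ratios of this kind have a limit. Without the 10 names overrepresented in set 1, control cells kept 873 of 906 Neat1 reads, while the Neat1 share rose from 0.560% to 0.868%. Those names thus filled more of the other targets than of Neat1, which raises the ratios of other miRNAs there. miR-6409, at 23.0% of Neat1 reads, lowers them. Set 1 ratios without these names were not computed.

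The miR-15/16 family, whose members share 1 seed and are known for slowing the cell cycle, was, in every pool but set 1 DKO, the most over-represented of the 5 families with most Neat1 reads. It held 7 reads (3.29%) in set 1 DKO and 32 (3.53%) in set 1 control cells, and 183 (7.17%), 536 (9.32%) and 403 (8.72%) in set 2 DKO, induced and uninduced cells. Its share on Neat1 over its share elsewhere was 1.65 (0.662 to 3.42) and 2.76 (1.88 to 3.90) in set 1 DKO and control cells, and 1.89 (1.62 to 2.18), 3.04 (2.79 to 3.32) and 2.92 (2.63 to 3.22) in set 2 DKO, induced and uninduced cells. The interval lay above 1 in every pool but the smallest. miR-16-5p alone ran at 2.18 (1.81 to 2.60), 3.16 (2.81 to 3.53) and 3.09 (2.70 to 3.52) in the 3 set 2 pools. miR-15b-5p ran at 1.34, 2.86 and 3.02. The excess was not particular to Neat1: on Malat1, miR-16-5p held 7.83% of induced and 7.77% of uninduced reads, and miR-15a-5p 7.24% and 7.49%.

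Among the other miRNAs named by rule, some lay above and some below their share elsewhere. miR-27a-3p ran at 1.06 in set 1 DKO and 1.28 in set 1 control cells and at 1.29, 1.29 and 1.25 in set 2 DKO, induced and uninduced cells. miR-31-5p ran at 1.80 and 1.55 in set 1 DKO and control cells, and at 1.04, 0.838 and 0.737 in set 2 DKO, induced and uninduced cells. The let-7 family, known for holding back growth genes, was below its share elsewhere throughout set 2, at 0.707, 0.672 and 0.674. In set 1 it ran at 1.74 on 22 reads in DKO and 1.17 on 43 reads in control cells. For miR-31-5p and let-7 the set 1 values are subject to the limit given above, so a difference from set 2 cannot be read from them. miR-467a-5p, a miRNA of the Sfmbt2 cluster, had a median of 2.12 over the pools, with 3.26 on 5 reads in set 1 control and 2.37 on 141 reads in induced cells.

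Target fragments covered almost the whole transcript. Reads lay in all 208 bins of 100 bases and covered 98.5% of bases, with a median depth of 17 reads and a peak of 588 at base 2552. The densest stretch was bases 2001 to 3000. It held 24.4% of Neat1 reads (18.8% to 30.8%) in set 1 DKO and 34.1% (31.0% to 37.3%) in set 1 control cells, and 22.9% (21.3% to 24.6%), 15.9% (14.9% to 16.8%) and 17.5% (16.4% to 18.6%) in set 2 DKO, induced and uninduced cells. Without miR-6409 the same shares were 13.4% and 14.5% in set 1, and 21.5%, 15.0% and 16.6% in set 2, so set 2 DKO cells were then the highest. The next dense stretch named here, bases 14001 to 15000, held 9.86% and 5.63% in set 1 DKO and control cells, and 7.84%, 9.84% and 8.46% in the set 2 pools.

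**Figure D3:**
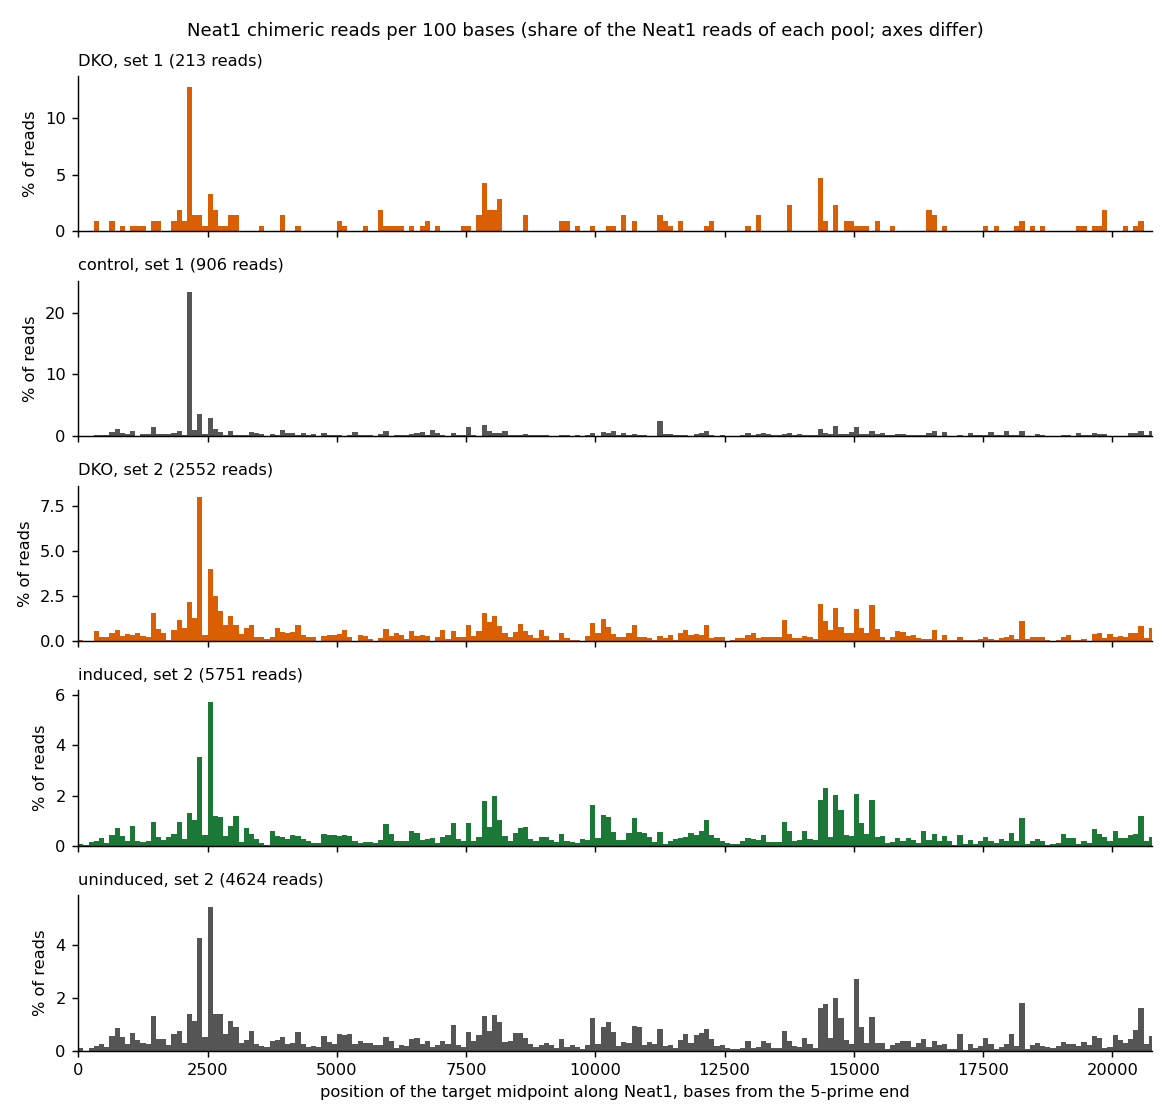
Neat1 reads per bin of 100 bases along the transcript, as percent of each pool's Neat1 reads (vertical axis), against the distance from the 5′ end in bases (horizontal axis), 1 panel per pool, with vertical axes that differ. The tallest bin of each of the 5 panels lies between bases 2001 and 3000, and in both set 1 panels it holds the miR-6409 place at bases 2131 to 2197.

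Single bins were shared by many miRNAs. Bases 2501 to 2600 held 716 reads of 70 miRNAs, 267 of them of miR-16-5p. Bases 2301 to 2400 held 639 reads of 72 miRNAs, 205 of them of miR-21a-5p. Bases 2101 to 2200 differed, with 391 of 431 reads from miR-6409 alone. The 10 fullest bins held 25.2% of all Neat1 reads. Across bins, the profile of uninduced cells had a Pearson correlation of 0.95 with that of induced cells, 0.86 with that of set 2 DKO cells and 0.31 with that of set 1 control cells, which was 0.77 without miR-6409. These correlations are across bins, which share libraries and the RNA's own sequence and are not replicates.

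To place single families, overlapping targets of miRNAs with 1 seed were joined into sites, a grouping chosen after seeing that overlapping targets of all miRNAs joined into 18 blocks of up to 3843 bases. Of 3854 such sites, 206 had at least 10 reads and 80 at least 20, and these 80 held 33.3% of all Neat1 reads. Reads in all 5 pools were seen at 20 of the 80. A further 2092 sites were single reads. The fullest site was that of the miR-15/16 family at bases 2487 to 2598 (chromosome 19, 5842883 to 5842994), with 441 reads: 0 in set 1 DKO, 12 in set 1 control, 35 in set 2 DKO, 220 in induced and 174 in uninduced cells. They came from miR-16-5p, miR-15b-5p, miR-15a-5p, miR-322-5p and miR-195a-5p. Its second site, at bases 14625 to 14752 (5830729 to 5830856), had 2, 3, 16, 117 and 71 reads in the same order. Most reads of the 2 sites came from induced and uninduced cells, which also held 5751 and 4624 of all 14046 Neat1 reads. As a share of the family's Neat1 reads, the first site held 0%, 37.5%, 19.1%, 41.0% and 43.2% in the same order. The second held 28.6%, 9.38%, 8.74%, 21.8% and 17.6%.

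Other families had sites that partly overlapped these. miR-21a-5p had 239 reads at bases 2128 to 2665, a stretch that holds both the first miR-15/16 site and the miR-6409 place, with 0 in set 1 DKO, 9 in set 1 control, 55 in set 2 DKO, 94 in induced and 81 in uninduced cells. miR-31-5p was spread over several places, with 152 reads at bases 14343 to 14532, 101 at 15293 to 15545, 89 at 477 to 877 and 55 at 18150 to 18291. The let-7 family had 117 reads at bases 10732 to 10931, and the miR-27 family had 102 at 7944 to 8202, over a miR-15/16 site of 81 reads at 7934 to 8090. The fullest sites of miR-183-5p, miR-182-5p and miR-96-5p, made from 1 primary transcript and with 3 seeds, lay at bases 2323 to 2380 (48 reads), 2324 to 2381 (27) and 2323 to 2380 (17), in a bin shared by 72 miRNAs. They held 18.2%, 14.1% and 11.5% of the Neat1 reads of these miRNAs. The near copies miR-103-3p and miR-107-3p had different fullest sites, at bases 14332 to 14420 (15 reads) and 15017 to 15045 (3). miR-23a-3p had 61 reads at bases 10109 to 10202, and its near copy miR-23b-3p 15 at 10127 to 10202.

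**Figure D4:**
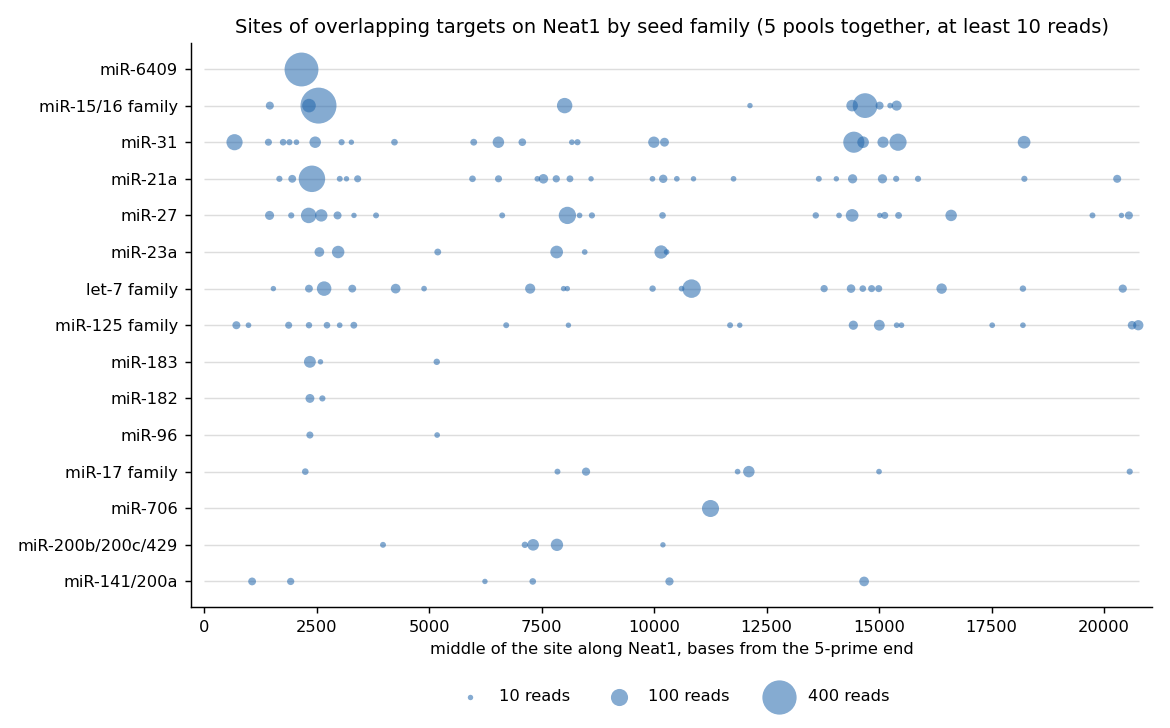
Sites with at least 10 reads of the seed families named here along Neat1, by the distance of their middle from the 5′ end in bases (horizontal axis), 1 row per family. The size of each mark shows the reads of the site over the 5 pools, and the largest are the miR-15/16 site at bases 2487 to 2598 (441 reads) and the miR-6409 site at bases 2131 to 2197 (391 reads).

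miR-6409 met Neat1 at 1 place only. Of 410 reads with this name in all pools, 391 lay on Neat1, all within bases 2131 to 2197 (chromosome 19, 5843284 to 5843350). In 384 of them (98.2%) the target began at the same base, base 2131 (5843350), whereas the other end took 40 positions and the reads carried 182 barcodes. Only 1 read of any other miRNA began at that base, in uninduced cells, although 2, 9, 16, 39 and 25 reads of other miRNAs overlapped the place in set 1 DKO, set 1 control, set 2 DKO, induced and uninduced cells. Such a shared start was uncommon: of 122 miRNAs with at least 10 Neat1 reads, 6 had more than 50% of them at 1 start, and the median was 8.22%. Another was miR-706, with 99 of 108 reads starting at base 11203 (5834278). The neighbouring Malat1 had 0 reads of miR-6409 in all 5 pools.

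The miR-6409 share differed mainly between sets. It was 12.7% of Neat1 reads in DKO and 23.0% in control cells of set 1, against 1.76%, 1.04% and 1.10% in set 2 DKO, induced and uninduced cells. Within set 1 the DKO over control ratio was 0.552 (0.355 to 0.827), on reads with 26 and 124 different barcodes. Counted once per position and miRNA, it was 1.38 on 14 and 36 positions, a count that can grow little where nearly all reads share a start. Within set 2 the DKO over uninduced ratio was 1.60 (1.05 to 2.44). Without this name, the Neat1 share in set 1 was 0.885 times as high in DKO as in control cells (0.749 to 1.04), an interval that held 1. What sets the single start was not tested.

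The miR-200 family, all members and arms counted together, was joined to Neat1 about as often as to other targets where it is present. Its share of Neat1 reads over its share elsewhere was 1.24 in set 1 control, 0.989 in induced and 0.919 in uninduced cells. These 3 intervals held 1. In set 2 DKO cells the value was 1.87, on 17 reads, with an interval above 1. The family had 1 read (0.469%) in set 1 DKO against 36 (3.97%) in set 1 control cells. In set 2 it had 17 reads (0.666%) in DKO and 514 (8.94%) in induced cells, against 284 (6.14%) in uninduced cells. The DKO pools were thus nearly empty of it, and the induced pool was the highest. The ratios on Neat1 were 0.118 (0.00291 to 0.702) in set 1 DKO, 0.108 (0.0623 to 0.177) in set 2 DKO and 1.46 (1.26 to 1.69) in induced cells. On all other targets they were 0.0497, 0.0532 and 1.35, each within the interval for Neat1 in set 1 and in induced cells, and below it in set 2 DKO cells. Of the 17 reads in set 2 DKO cells, 15 were found again in a second pool of the set, and without such reads the ratios were 0 (0 to 0.534) in set 1 and 0.0136 (0.00164 to 0.0496) in set 2. How the shared reads arose was not tested.

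The 5 members had unequal ratios of induced over uninduced cells, differences that were not tested. miR-200a-3p had 46 reads in induced against 14 in uninduced cells, a ratio of Neat1 shares of 2.64 (1.43 to 5.20). miR-429-3p had 40 against 14 (2.30, 1.22 to 4.57) and miR-200b-3p 88 against 34 (2.08, 1.39 to 3.19). These are the 3 members of the chromosome 4 cluster. The 2 members of the chromosome 6 cluster had more reads and smaller ratios: miR-141-3p had 185 against 112 (1.33, 1.04 to 1.69) and miR-200c-3p 149 against 106 (1.13, 0.875 to 1.46). On other targets the ratios were 2.17, 2.27 and 2.55 for miR-200a-3p, miR-429-3p and miR-200b-3p. There they were 0.975 for miR-141-3p and 1.04 for miR-200c-3p, so the split between clusters was not particular to Neat1. Only for miR-141-3p did the ratio elsewhere lie outside the Neat1 interval, below it. In set 2 DKO against uninduced cells, miR-200c-3p had 9 against 106 reads, miR-141-3p 3 against 112, miR-200b-3p 3 against 34, miR-429-3p 2 against 14 and miR-200a-3p 0 against 14.

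The 2 miR-200 seeds were weighted differently on Neat1 than elsewhere in induced and, less so, in uninduced cells. The AACACUG seed, of miR-141 and miR-200a, made up 45.5% of the 508 miR-200 reads of the 3p arms on Neat1 against 30.3% on other targets in induced cells, and 45.0% of 280 (39.1% to 51.0%) against 37.3% in uninduced cells. It made up 45.7% of 35 against 40.2% in set 1 control cells, and 17.6% of 17 against 32.4% in set 2 DKO cells. Both intervals held the share elsewhere. Its share of Neat1 reads over its share elsewhere was 1.47 (1.29 to 1.68) in induced and 1.10 (0.917 to 1.31) in uninduced cells. The AAUACUG seed, carried by the other 3 members, was below its share elsewhere in both, at 0.770 (0.682 to 0.867) and 0.801 (0.679 to 0.939). It ran at 1.11 (0.665 to 1.73) in set 1 control cells and at 2.30 (1.25 to 3.90) in set 2 DKO cells, where it had 14 reads, 12 of them shared between pools. The fullest miR-200 site lay at bases 7790 to 7892, with 52 reads: 0 in set 1 DKO, 5 in set 1 control, 2 in set 2 DKO, 32 in induced and 13 in uninduced cells. The next lay at bases 7247 to 7377 with 46 reads (27 in induced and 17 in uninduced cells) and at 14544 to 14788 with 32 (18 and 12). None of these coincided with the peak at base 2552.

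The reads of other miRNAs at the 11 miR-200 sites were also counted. The sites were placed by miR-200 reads, which came mostly from induced and uninduced cells. The counts therefore describe these places, and why miR-200 reads differed there was not tested. Other miRNAs had 13.5% of their Neat1 reads there in set 1 DKO cells, on 25 reads, and 11.8% in set 1 control cells. In set 2 DKO, induced and uninduced cells they had 12.5%, 11.6% and 11.1%. The ratios were 1.15 (0.700 to 1.82) and 1.13 (0.980 to 1.31) for the 2 DKO comparisons and 1.05 (0.925 to 1.18) for induced cells, all with intervals that held 1.

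In set 2 DKO cells other partners of Neat1 also differed from uninduced cells. Of 67 miRNAs with at least 20 Neat1 reads in the compared pools, 7.46% were at least 2-fold higher and 20.9% at least 2-fold lower in DKO cells, miR-200 members among the lower. On other targets the shares were 11.1% and 11.9% of 369 miRNAs. Among those with at least 50 reads in the 2 pools, the highest were miR-23b-3p, with 54 reads in DKO against 28 in uninduced cells (3.49, 2.18 to 5.73), and miR-27b-3p, with 57 against 33 (3.13). miR-27a-3p (2.04, 1.70 to 2.44), miR-205-5p (1.98, 1.55 to 2.52) and miR-484, with 29 against 30 (1.75, 1.01 to 3.02), followed. Among the lowest were miR-29a-3p (0.311), miR-193a-3p (0.369) and miR-125b-5p (0.435, 0.322 to 0.578). On all other targets miR-484 had a ratio of 1.20, lower than on Neat1 but within its Neat1 interval. The other 7 miRNAs had ratios there of 3.47, 3.03, 1.97, 2.10, 0.338, 0.320 and 0.518, so their shifts were not particular to Neat1. For 57 of the 67 the ratio elsewhere lay within the Neat1 interval.

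Of the miR-15/16 family, miR-16-5p and miR-15b-5p were among those that ran differently on Neat1. miR-16-5p had a DKO over uninduced ratio of 0.944 (0.754 to 1.18) on Neat1 against 1.34 on other targets, and miR-15b-5p 0.523 (0.331 to 0.803) against 1.18. miR-31-5p ran the other way, at 1.03 against 0.731. For miR-15a-5p, at 1.01 (0.615 to 1.64) against 1.21, the ratio elsewhere lay within the Neat1 interval. Within the miR-15/16 family the places differed too, which was examined after the values were seen. The site at bases 2487 to 2598 held 19.1% of the family's Neat1 reads in DKO, 41.0% in induced and 43.2% in uninduced cells, a DKO over uninduced ratio of 0.443 (0.299 to 0.640). For miR-16-5p alone it held 19 of 125 reads in DKO, 131 of 313 in induced and 110 of 240 in uninduced cells. The ratio of the site was 0.640 (0.392 to 1.01) when each position and miRNA was counted once, an interval that held 1, and 0.404 (0.260 to 0.607) without reads shared between pools. The site at bases 14625 to 14752 ran likewise, at 8.74% in DKO and 17.6% in uninduced cells (0.496, 0.269 to 0.862). At bases 2283 to 2380 the order was opposite, with 14.8% in DKO and 4.47% in uninduced cells (3.30, 1.75 to 6.37).

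The same stretch was examined for all miRNAs. Of 121 bins of 100 bases with at least 20 reads, 3.31% were at least 2-fold higher and 7.44% at least 2-fold lower in DKO than in uninduced cells. Bases 2301 to 2400 held 204 Neat1 reads in DKO (7.99%) against 197 in uninduced cells (4.26%), a ratio of 1.88 (1.54 to 2.29), and 3.53% in induced cells. In DKO against uninduced cells there were 51 against 72 reads of miR-21a-5p, 31 against 14 of the miR-27 family, 27 against 17 of the miR-15/16 family, 17 against 13 of miR-183-5p and 17 against 10 of miR-205-5p, from 2552 and 4624 Neat1 reads. The miR-19 and miR-29 families, with 1 against 4 reads each, ran the other way. The ratio was 1.97 with each position and miRNA counted once and 1.91 without shared reads. Set 1 did not show this rise. Without miR-6409 the bin held 3 reads in set 1 DKO against 32 in set 1 control cells. That ratio was 0.352 (0.0689 to 1.12), an interval that held 1. The miR-27 family, higher in DKO cells on all targets, had 36 reads in DKO and 25 in uninduced cells at bases 2230 to 2419, and 30 and 14 at bases 2438 to 2771.

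**Figure D5:**
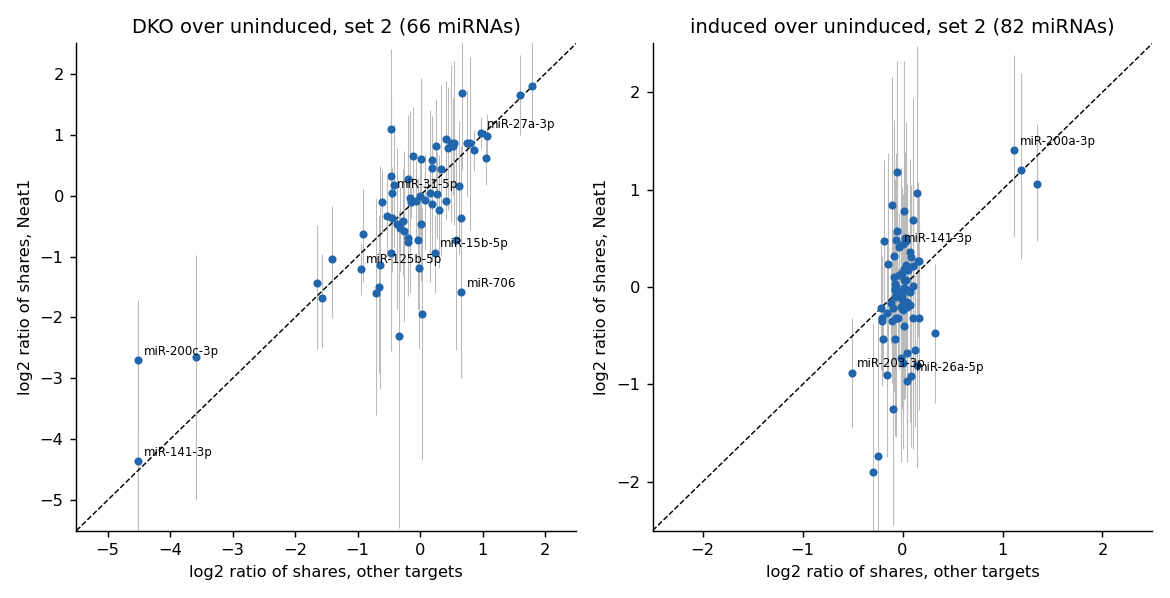
Ratio of each miRNA's share of Neat1 reads (vertical axis) against the ratio of its share on all other targets (horizontal axis), both as log2 values, for DKO over uninduced (66 miRNAs drawn, and miR-6409, with no DKO read on other targets, left out) and induced over uninduced cells (82 miRNAs). Points are miRNAs with at least 20 Neat1 reads, bars are exact 95% intervals, some cut by the axis, and the dashed line marks equal ratios. The Neat1 interval held the ratio elsewhere for 57 of 67 and 74 of 82 miRNAs.

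Of 82 miRNAs compared between induced and uninduced cells, 4.88% were at least 2-fold higher and 3.66% at least 2-fold lower in induced cells, against 3.83% and 2.39% on other targets. For 74 of them the ratio on other targets lay within the Neat1 interval. Among miRNAs with at least 50 reads in the 2 pools and apart from the miR-200 members, the highest ratios were 1.49 for miR-30c-5p and 1.42 for miR-15a-5p. The lowest were miR-467d-5p (0.514, 0.291 to 0.891, against 1.03 elsewhere) and miR-26a-5p (0.530, 0.320 to 0.866, against 1.06), whose ratios elsewhere lay outside the Neat1 interval. miR-31-3p (0.536, 0.298 to 0.947, against 0.898), miR-203-3p (0.544, 0.366 to 0.802, against 0.704), a miRNA of differentiating keratinocytes, and miR-103-3p (0.582, 0.316 to 1.06, against 1.00) followed. Their ratios elsewhere lay within it. Of 162 bins of 100 bases, 3.09% were at least 2-fold higher and 3.09% at least 2-fold lower in induced cells. In set 1 only 7 bins had enough reads, 28.6% of them higher and 14.3% lower in DKO than in control cells. Among set 1 pools only 12 miRNAs could be compared, of which 8.33% were at least 2-fold higher and 8.33% at least 2-fold lower in DKO than in control cells, against 6.96% and 30.5% on other targets. For 10 the ratio elsewhere lay within the Neat1 interval.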

How the data were processed

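Per the labels' protocols, cells were irradiated with UV light, and Ago2 was precipitated after RNase A and T1 digestion, before miRNA and target were ligated on beads. The submitters' processing notes name Novoalign, cutadapt and bedtools and the build mm10. Tool versions are not given in the sources used here. The deposited values are neither counts nor signals but another kind of unit: per the file headers, each entry gives the target's position and strand, a barcode and the ligated miRNA. Python 3.11.15, numpy 2.4.6, pandas 2.3.3, scipy 1.17.1 and matplotlib 3.10.9 were used. Groups were 5 pools with no library names, so tests between libraries, planned for named libraries, were not made. Ratios are of shares of reads, called from 2-fold with at least 20 reads in the compared pools. The computation was tested on simulated data.

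Named miRNAs are the 5 miR-200 members, the 15 others with the highest mean share of Neat1 reads, the 5 largest ratios per direction and comparison with at least 50 reads, and the 5 largest ratios of Neat1 over other targets per direction with at least 100 reads. Genes were named by likeness to Neat1 and as the 3 leading members of each list. miRNAs, bins and sites outside these rules were chosen after their values were seen. The members and lists were chosen with earlier results of these data known. Sites count from 1 overlapping base. Alternatives were counting each position, strand and miRNA once, leaving out shared reads, marked read names, mitochondrial targets, miRNAs overrepresented in set 1 or miR-6409, bins of 500 bases and an overlap of 10 bases. Sequences are from RefSeq by miRNA name, and miR-467a-5p had no entry. The genome sequence, exons and seed matches were not analysed here.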

Additional observations from a re-analysis of the deposited data

Results flagged for a closer look

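The miR-6409 reads on Neat1 had opposite DKO ratios in the 2 sets. The share of Neat1 reads was 0.552 times as high in DKO as in control cells of set 1 (27 reads against 208), and 1.60 times as high in DKO as in uninduced cells of set 2 (45 against 51). Each comparison has 1 pool a group, and the difference between the sets was not tested. The set 1 reads carried 26 different barcodes in DKO and 124 in control cells. Counted once per position and miRNA the set 1 ratio was 1.38, on 14 and 36 positions, but nearly all reads share a start there, so this count can grow little with more reads.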

How the results depend on the processing

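No paired analysis was possible because the libraries of each group were deposited as 1 pool with no library name, and for the same reason no library could be left out. Of 174 alternatives to the main results, 147 left the value within its interval or count range, 27 moved it and 0 reversed it. The 3 ratios of the Neat1 share ranged over their alternatives between 0.679 and 0.885 (DKO over control, set 1), 0.811 and 0.835 (DKO over uninduced) and 0.922 and 0.938 (induced over uninduced). The Neat1 share itself moved to 0.432% in set 1 control cells without miR-6409. Without the 10 names overrepresented in set 1 it was 0.590% and 0.868% in set 1 DKO and control cells and 1.41% in induced cells, and without mitochondrial targets 1.31%, 1.51% and 1.62% in set 2 DKO, induced and uninduced cells. It was 1.46% and 1.55% in induced and uninduced cells with each position and miRNA counted once, and 1.42% and 1.54% without shared reads. Without shared reads the miR-200 share was 0% and 0.0847% in set 1 and set 2 DKO cells, with ratios of 0 and 0.0136. The share of bases 2001 to 3000 was 18.7% in set 1 control cells and 20.3%, 13.2% and 14.3% in set 2 DKO, induced and uninduced cells with each position counted once, and 13.4% and 14.5% in set 1 DKO and control cells without miR-6409. With each position counted once, 3 named miRNAs, not 5, had an interval of Neat1 over other targets below 1 in uninduced cells, and 0 and 0, not 1 and 2, had intervals above and below 1 between set 1 pools (1 below without marked read names). The 18 blocks became 49 with a 10-base overlap, or 206 seed-family sites of at least 10 reads. With each position counted once, 2 values reversed, both of miRNAs whose reads nearly all share a start, where this count can grow little: miR-6409, DKO over control in set 1, to 1.38, and miR-706 on Neat1 over other targets in uninduced cells, 1.77 in the main count, to 0.558. The miR-16-5p excess in uninduced cells was then 2.01 in place of 3.09. A count of 3 reads is 1.41% of Neat1 reads in set 1 DKO and 0.0649% in uninduced cells, which limits what set 1 can show.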
